A study of Mus musculus with 9 samples.

Results

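Integrins and cadherins are the transmembrane receptors by which cells hold to the matrix and to each other, and 37 of their genes are described here, 25 integrin subunits and 12 cadherins. They were followed in mouse embryonic stem cells carrying an Afp::GFP transgene, in which the promoter of Afp, the gene of alpha-fetoprotein, drives green fluorescent protein. Embryoid bodies, aggregates that form derivatives of the germ layers, were started from 300 cells and attached to gelatin, and flow cytometry then isolated the cells that expressed Afp, per the labels. The groups were day 4, day 7 and day 21 of differentiation, each with 3 Affymetrix arrays, and all 9 arrays shared the transgenic line and the reporter used for sorting. RNA inputs of 500 pg were amplified before hybridisation. A member was measured by probe sets, the groups of array probes that report 1 transcript region, whose only gene symbol in the platform annotation was that gene, and the brightest was used. In this way 36 of the 37 members were measured among 22180 genes in all, while Itga10 had no such probe set and was not analysed here. The comparisons of days 4, 7 and 21 describe how the receptors differed between the cells sorted at each time.

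An integrin is a heterodimer of an alpha and a beta subunit, and the pairing sets its ligand: laminins, collagens, or the RGD sequence found in fibronectin and vitronectin. Classical cadherins bind a like cadherin on the neighbouring cell in the presence of calcium and hold beta-catenin or plakoglobin at their cytoplasmic tail, which alpha-catenin links to actin. E-cadherin, encoded by Cdh1, is the cadherin of most epithelia, endoderm included, whereas N-cadherin, encoded by Cdh2, is typical of mesoderm, neural tissue and mesenchyme. Visceral endoderm and gut epithelium rest on a basement membrane of laminin and type IV collagen.

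All values are log2 signals as the authors deposited them, so a step of 1 is a doubling of signal, and changes are limma estimates with their standard error (SE). A gene was called where the limma p, adjusted by the Benjamini-Hochberg method over all 22180 genes, was under 0.05. Whether the 3 arrays of a day were separate cultures is not stated in the labels, so a p-value measures only their spread, which may be technical. Fewer cells of a type and less RNA per cell cannot be told apart in sorted bulk samples. As a reference for dim signals, the 95th percentile of 1105 olfactory receptor genes had a day mean of 6.06, 6.06 and 6.03 at days 4, 7 and 21. A change to or from a mean below it is set against a floor. Arrays of 1 day correlated at 0.981 to 0.990 over all probe sets, a correlation across probe sets that are not independent. Afp itself had a signal of 5.72 ± 0.18 (SD, n = 3) at day 4, below the reference in cells labelled as sorted for it, then 10.60 ± 0.07 and 13.07 ± 0.11 at days 7 and 21.

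More of these receptors were called between days 7 and 21 than between days 4 and 7, and most of the later calls were rises. Between days 4 and 7, 4 of the 36 measured members rose, 6 fell and 26 did not pass, so 27.8% were called where 13.4% of all genes were. Between days 7 and 21, 15 rose, 4 fell and 17 did not pass, 52.8% against 23.0% of all genes. Day 21 against day 4 gave 14 higher, 5 lower and 17 not called, 52.8% against 29.1%. The arrays of both days did not overlap for 13, 23 and 22 members in the 3 comparisons, beside 29.9%, 35.5% and 40.4% of all genes. A call with a log2 change of at least 1 was reached by 6, 11 and 12 members, beside 3.41%, 6.45% and 8.01% of all genes. The median change of the members was 0.02, 0.17 and 0.20 in the 3 comparisons, beside -0.01, -0.03 and -0.03 over all genes. Higher calls made up 6.98%, 12.4% and 15.0% of all genes, and lower calls 6.47%, 10.7% and 14.1%. The members were also more often above the dim-signal reference on at least 1 day, 28 of 36 or 77.8% against 59.5% of all genes. The comparisons share arrays, day 7 standing in both intervals, so their values are given side by side and are not independent.

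**Figure D1:**
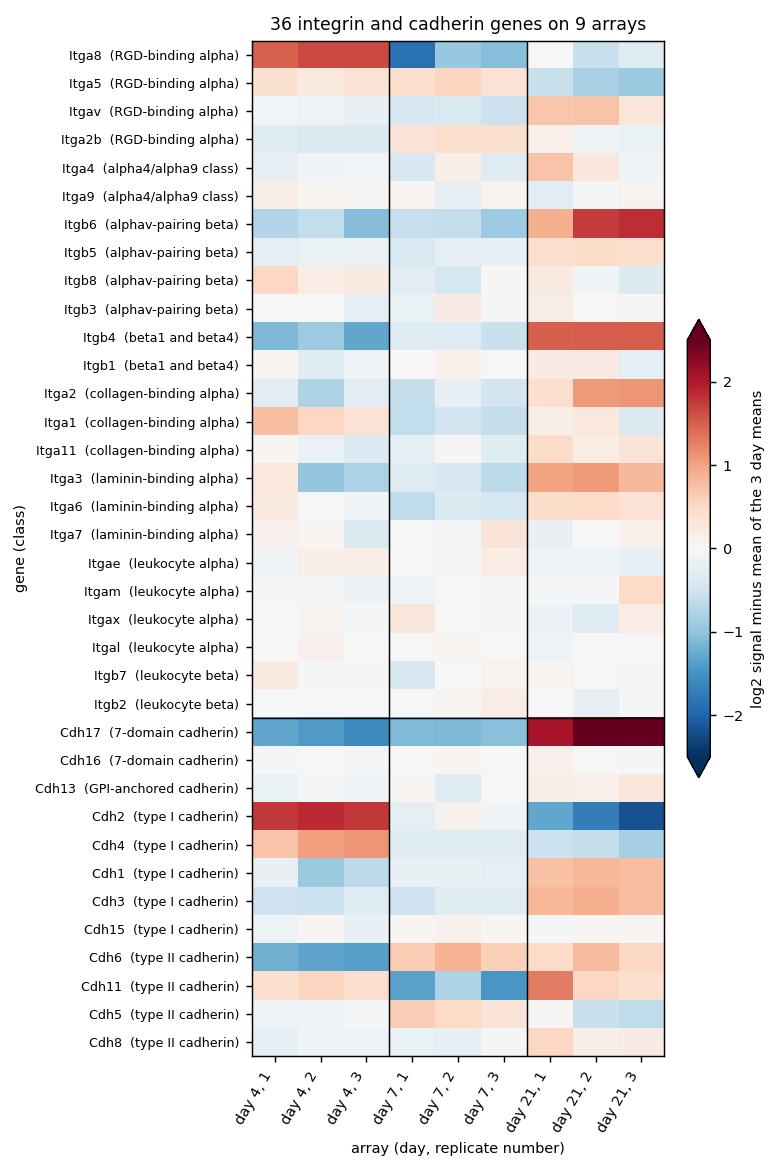
Colour gives the log2 signal of each of 36 genes (rows, with the class of the protein) on 9 arrays (columns, by day and replicate number), minus the mean of the gene's 3 day means; integrins lie above the line and cadherins below it, and colours saturate where the scale ends. Cdh17, Itgb4 and Itgb6 are red at day 21, Itga8 and Cdh2 are red at day 4, and the leukocyte integrins are pale throughout.

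The 24 measured integrins and the 12 cadherins each had more calls in the later interval. Of the integrins, 2 rose and 3 fell by day 7, and 10 rose and 2 fell from day 7 to day 21. Of the cadherins, 2 rose and 3 fell by day 7, and 5 rose and 2 fell afterwards. In all, 21 members or 58.3% were called in at least 1 comparison, beside 36.2% of all genes. No call in either interval was the course of 15 members. The next commonest, that of 10 members, was no call before day 7 and a rise after it. These 10 were Itga2, Itga3, Itga11, Itgav, Itgb5, Itgb6, Cdh1, Cdh3, Cdh8 and Cdh17. The share of all genes with this course was not computed. The 6 members Itga1, Itga6, Itga8, Cdh11, Itga2b and Cdh5 were called in opposite directions in both intervals, 16.7% of the members and 5.04% of all genes. Since day 7 enters both intervals, a deviation of the day 7 arrays alone pushes their changes in opposite directions.

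**Figure D2:**
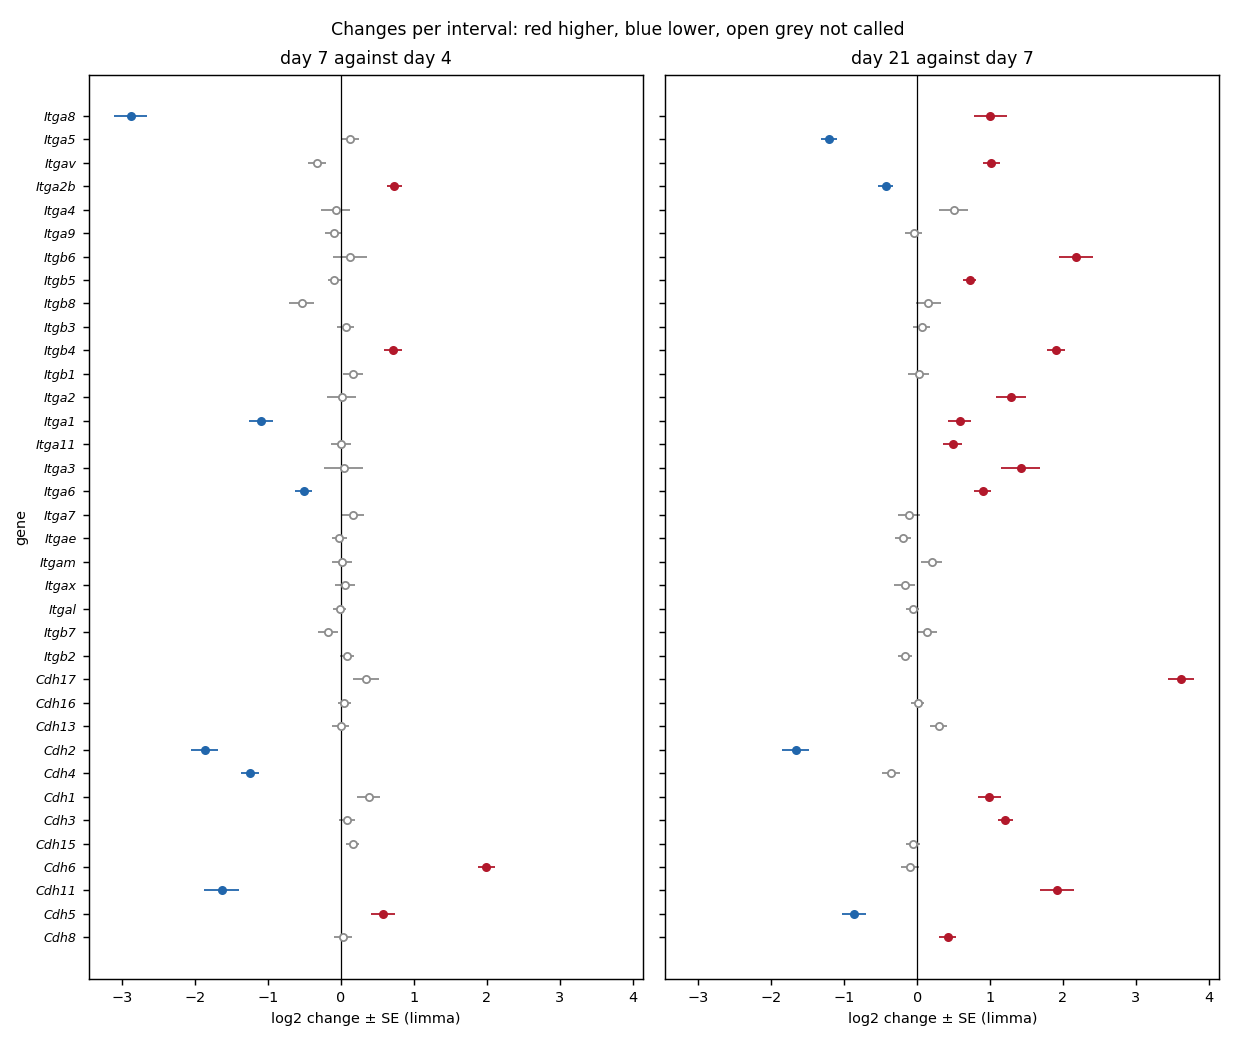
Points are limma log2 changes and bars their SE (n = 3 arrays per day) for the 36 genes, day 7 against day 4 on the left and day 21 against day 7 on the right; red is called higher, blue called lower and open grey not called. The left side has 4 red and 6 blue points and the right side 15 red and 4 blue, with Itga8, Itga1, Itga6 and Cdh11 blue on the left and red on the right.

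Promoter windows are shown for the 2 called members with the largest change in each interval among those that had an entry in RefSeq's table for GRCm38.p6, because their signals moved most. A chromosome was left out of the member search, so members on it were not considered, whatever their change. Each window runs from 250 bases before to 50 bases after an annotated start, 300 bases written 5′ to 3′ on the gene's strand. Itga8 (chr2:12301895-12302194, minus strand) and Cdh6 (chr15:13173626-13173925, minus strand) had the largest changes by day 7, and Itgb6 (chr2:60673644-60673943 and chr2:60722554-60722853, minus strand) and Itga3 (chr11:95069149-95069448 and chr11:95076665-95076964, minus strand) the largest after it. Capitals mark matches on either strand to CAGGTG, an E-box read by Snail and Zeb repressors of Cdh1, or to TGANTCA, the AP-1 motif.
Itga8: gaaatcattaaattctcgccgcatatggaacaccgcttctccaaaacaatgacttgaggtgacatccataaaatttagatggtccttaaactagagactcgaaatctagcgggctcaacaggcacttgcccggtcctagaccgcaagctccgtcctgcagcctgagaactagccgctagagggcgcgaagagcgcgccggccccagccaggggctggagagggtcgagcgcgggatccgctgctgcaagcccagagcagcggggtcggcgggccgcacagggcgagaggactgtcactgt
Cdh6: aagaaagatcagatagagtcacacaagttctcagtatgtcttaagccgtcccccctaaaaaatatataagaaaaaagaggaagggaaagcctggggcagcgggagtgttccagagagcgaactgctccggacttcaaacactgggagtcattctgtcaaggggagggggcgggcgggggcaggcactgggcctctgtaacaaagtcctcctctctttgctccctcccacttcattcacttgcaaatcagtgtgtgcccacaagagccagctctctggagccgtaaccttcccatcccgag
Itgb6, downstream start: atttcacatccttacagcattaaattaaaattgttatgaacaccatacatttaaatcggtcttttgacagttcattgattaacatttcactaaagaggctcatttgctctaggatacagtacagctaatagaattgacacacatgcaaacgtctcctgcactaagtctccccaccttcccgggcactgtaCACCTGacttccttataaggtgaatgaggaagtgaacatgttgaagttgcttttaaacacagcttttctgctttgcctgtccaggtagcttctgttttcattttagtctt
Itgb6, upstream start: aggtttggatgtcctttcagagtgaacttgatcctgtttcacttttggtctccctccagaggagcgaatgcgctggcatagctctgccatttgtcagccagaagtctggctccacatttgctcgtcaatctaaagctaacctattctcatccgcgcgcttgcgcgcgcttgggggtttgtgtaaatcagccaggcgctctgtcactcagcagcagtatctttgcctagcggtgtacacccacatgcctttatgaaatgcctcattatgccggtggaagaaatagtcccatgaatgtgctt
Itga3, downstream start: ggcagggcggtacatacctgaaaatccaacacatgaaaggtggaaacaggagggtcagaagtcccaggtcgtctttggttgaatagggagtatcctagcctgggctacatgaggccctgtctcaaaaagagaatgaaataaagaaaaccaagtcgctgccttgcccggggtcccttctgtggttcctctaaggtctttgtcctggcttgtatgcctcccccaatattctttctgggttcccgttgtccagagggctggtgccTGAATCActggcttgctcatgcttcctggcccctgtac
Itga3, upstream start: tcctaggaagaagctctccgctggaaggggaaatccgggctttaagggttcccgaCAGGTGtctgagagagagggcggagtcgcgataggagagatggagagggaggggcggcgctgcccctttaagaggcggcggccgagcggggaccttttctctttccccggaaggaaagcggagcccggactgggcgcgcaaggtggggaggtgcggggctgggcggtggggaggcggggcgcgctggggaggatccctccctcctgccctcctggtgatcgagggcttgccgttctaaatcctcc

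The windows of Itga8 and Cdh6 held no match to either motif. The downstream Itgb6 window held CACCTG, the reverse complement of CAGGTG, 60 bases before the start, while the upstream one held neither motif. In Itga3 the upstream start had CAGGTG at position -195 and the downstream start had TGAATCA at position 13 after it. Across the 23 windows of the 21 members with an entry outside the chromosome left out, 6 windows (26.1%) held CAGGTG on either strand. The share was 20.2% of all 32851 windows, from which no chromosome was left out. TGANTCA was in 3 windows (13.0%) beside 7.81%, and the sequence AGATAA, which GATA factors bind, in 1 window (4.35%) beside 11.2%. The last 2 motifs were chosen after the data were seen, none of the motifs contains another, and a match describes letters only. The median GC content of member windows was 58.7% against 52.7% over all windows, with a median of 12 against 7 CG dinucleotides.

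Among the laminin-binding alpha subunits, Itga3 and Itga6 were higher at day 21 than at day 7, and Itga7 was not called in any comparison. Itga6, the alpha subunit of both main laminin receptors, had signals of 8.38, 8.13 and 8.04 at day 4, 7.51, 7.80 and 7.70 at day 7, and 8.60, 8.62 and 8.49 at day 21. The day 7 arrays were the lowest, the day 21 arrays the highest, and no 2 days overlapped. Itga6 fell by 0.51 ± 0.12 on the log2 scale by day 7 (limma adjusted p = 0.0158) and rose by 0.90 ± 0.12 after it (0.000295), 1.86-fold. Its day 7 fall was lost without day 4 replicate 1 (adjusted p = 0.0606) or without day 7 replicate 1 (0.0686). The net rise of 0.39 ± 0.12 from day 4 to day 21 (0.0326) was lost without day 4 replicate 2 or 3 and without day 21 replicate 1 or 2, with adjusted p up to 0.119.

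Itga3, whose product pairs with beta1 to bind laminins of epithelial basement membranes, had signals of 8.37, 7.15 and 7.31 at day 4, 7.78, 7.71 and 7.45 at day 7, and 9.11, 9.16 and 8.92 at day 21. Days 4 and 7 overlapped, because day 4 replicate 1 lay above every day 7 array, and all day 21 arrays were above both. The change was 0.04 ± 0.27 by day 7 (limma adjusted p = 0.965) and 1.42 ± 0.27 from day 7 to day 21 (0.0028), 2.67-fold. Itga7, better known from muscle, had day means of 5.94, 6.10 and 5.99, near the dim-signal reference. Its range of 0.16 between them therefore does not show a stable level.

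The beta4 subunit, which pairs only with alpha6 and anchors epithelia at hemidesmosomes, was the only member that rose in both intervals. Itgb4 had signals of 5.97, 6.18 and 5.79 at day 4, 6.78, 6.77 and 6.53 at day 7, and 8.58, 8.61 and 8.61 at day 21. Every array of a later day was above every array of an earlier one. It rose by 0.71 ± 0.12 by day 7 (limma adjusted p = 0.00228) and by 1.91 ± 0.12 after it (1.47e-06), 3.75-fold. The day 4 mean of 5.98 lay below the dim-signal reference, so the 6.14-fold difference from day 4 to day 21 is a ratio to a floor.

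Itgb1, which encodes the beta1 subunit shared by laminin, collagen and fibronectin receptors, was not called in any comparison. Its signals were 10.18, 9.84 and 10.06 at day 4, 10.15, 10.27 and 10.14 at day 7, and 10.34, 10.35 and 9.92 at day 21. The 3 days overlapped throughout. The changes were 0.16 ± 0.14 by day 7 (95% interval -0.15 to 0.47) and 0.02 ± 0.14 from day 7 to day 21 (-0.29 to 0.33). From day 4 to day 21 the change was 0.18 ± 0.14 (-0.13 to 0.49), so differences of up to about that upper bound are not resolved by 3 arrays per day.

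The 3 measured collagen-binding alpha subunits were all higher at day 21 than at day 7, though from different starts. Itga2, the alpha subunit of an epithelial and platelet collagen receptor, had signals of 6.08, 5.57 and 6.07 at day 4, 5.75, 6.14 and 5.85 at day 7, and 6.77, 7.40 and 7.44 at day 21. Days 4 and 7 overlapped around the dim-signal reference and day 21 stood above both. The change was 0.01 ± 0.20 by day 7 (limma adjusted p = 0.993) and 1.29 ± 0.20 after it (0.000967), 2.44-fold.

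Itga1, its neighbour in the RefSeq gene order with no protein-coding gene between them, encodes a collagen receptor subunit of mesenchyme and smooth muscle. It had signals of 7.40, 7.17 and 7.01 at day 4, 6.04, 6.18 and 6.06 at day 7, and 6.81, 6.92 and 6.30 at day 21. Day 4 was highest, day 7 lowest, and no 2 days overlapped. Itga1 fell by 1.10 ± 0.16 on the log2 scale by day 7 (limma adjusted p = 0.00107), 2.14-fold, while Itga2 beside it had no call. Its later rise of 0.58 ± 0.16 (0.0252) was lost without day 7 replicate 1 or 3 or without day 21 replicate 1 or 2, with adjusted p from 0.0731 to 0.0941. Its net fall from day 4 to day 21 (-0.52 ± 0.16, 0.0352) was lost without day 4 replicate 1 (0.127) or 2 (0.0790) or without day 21 replicate 3 (0.0869).

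Itga11, a fibroblast collagen receptor subunit, rose by 0.49 ± 0.13 between days 7 and 21 (limma adjusted p = 0.0242), from means under the dim-signal reference at days 4 and 7 to 6.07 at day 21. That call was lost without day 7 replicate 1 or 3 and without day 21 replicate 1 or 3, at adjusted p up to 0.0890, and with the replicate number as a block in the 6 arrays of both days (0.0505). Its day 21 against day 4 call was lost without day 4 replicate 2 (0.0592) or 3 (0.0827) or without day 21 replicate 1 (0.0738).

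The RGD-binding alpha subunits did not move as a group: each of the 4 had its own course. Itga8, a receptor subunit for fibronectin, vitronectin and nephronectin, had signals of 8.40, 8.59 and 8.58 at day 4, 5.07, 5.99 and 5.86 at day 7, and 6.92, 6.38 and 6.62 at day 21. The 3 days did not overlap, with day 4 highest and day 7 lowest and day 7 replicate 1 the lowest of all. Itga8 fell by 2.89 ± 0.22 on the log2 scale by day 7 (limma adjusted p = 1.25e-05), the largest change of any member in that interval, and then rose by 1.003 ± 0.22 (0.00797). The day 7 mean of 5.64 lay below the dim-signal reference. Day 21 stayed below day 4 by 3.69-fold (-1.88 ± 0.22, adjusted p = 0.000106).

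Itga5, the alpha subunit of the main fibronectin receptor, had signals of 9.36, 9.22 and 9.33 at day 4, 9.42, 9.52 and 9.35 at day 7, and 8.43, 8.18 and 8.05 at day 21. Days 4 and 7 overlapped and all day 21 arrays lay below them. The change was 0.13 ± 0.11 by day 7 (limma adjusted p = 0.597) and -1.21 ± 0.11 after it (2.98e-05), 2.31-fold lower. Itga5 was the only integrin without a call before day 7 that fell after it.

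Itgav, the alpha subunit that pairs with beta1, beta3, beta5, beta6 and beta8, had signals of 8.77, 8.71 and 8.65 at day 4, 8.42, 8.44 and 8.29 at day 7, and 9.53, 9.54 and 9.14 at day 21. The days did not overlap, with day 7 lowest and day 21 highest. The change of -0.33 ± 0.12 by day 7 was not called (limma adjusted p = 0.118), though it passed in the 6 arrays of both days alone (0.0498) and without day 21 replicate 3 (0.0351). It rose by 1.02 ± 0.12 from day 7 to day 21 (0.00015), 2.03-fold. A dimmer Itgav probe set, with day means of 4.15 to 4.25, below the reference, changed by -0.01 and 0.10.

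Itga2b, the alpha subunit of the platelet fibrinogen receptor, had signals of 6.37, 6.33 and 6.35 at day 4, 7.01, 7.13 and 7.10 at day 7, and 6.82, 6.61 and 6.52 at day 21. The day 7 arrays were the highest and no 2 days overlapped. It rose by 0.73 ± 0.10 by day 7 (limma adjusted p = 0.000718) and then fell by 0.43 ± 0.10 on the log2 scale (0.0107). Its difference of 0.30 ± 0.10 between days 21 and 4 (0.0489) was not called in 14 of 17 alternative settings. Of 8 platelet and megakaryocyte markers, Clec1b and Gp5 rose by day 7 and fell after it and no other was called in either interval. That is 25.0% in each interval, beside 13.4% and 23.0% of all genes. Clec1b lay below the reference on every day (3.88, 4.48 and 3.90) and Gp5 near it (5.65, 6.08 and 5.72), whereas Gp9, above it at 7.60, 7.72 and 7.55, and Treml1 were not called. Their mean level per array lay between 5.47 and 5.51 at day 4, 5.55 and 5.68 at day 7, and 5.39 and 5.69 at day 21, so it stayed below the reference, and its part in the result was not tested. Itgb3, the beta subunit that completes the platelet receptor, differed by 0.13 between its day means of 6.05, 6.11 and 6.17, which lay near the reference.

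Of the 4 beta subunits that pair with alphav, Itgb5 and Itgb6 rose after day 7, and Itgb3 and Itgb8 were not called. Itgb6, an epithelial subunit whose heterodimer activates latent TGF-beta, had signals of 4.62, 4.73 and 4.26 at day 4, 4.78, 4.75 and 4.44 at day 7, and 6.23, 7.09 and 7.18 at day 21. Days 4 and 7 overlapped below the dim-signal reference, and all day 21 arrays lay above it. The rise of 2.18 ± 0.23 from day 7 to day 21 (limma adjusted p = 7.08e-05), 4.54-fold, is therefore a ratio to a floor. Itgb5, the vitronectin receptor subunit, rose by 0.72 ± 0.09 in the same interval (0.000183), from a mean of 8.76 to 9.48. Itgb8, another activator of latent TGF-beta, changed by -0.54 ± 0.17 by day 7 without a call (0.067), and passed in 5 of 17 alternative settings, among them without day 7 replicate 3 (0.0450) and without day 21 replicate 1 (0.0443) or 3 (0.0484). Without day 21 replicate 1, its day 21 against day 4 change passed too (0.0427).

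The 6 leukocyte integrin subunits were not above the dim-signal reference on any day. Itgal, Itgam, Itgax, Itgae, Itgb2 and Itgb7, which form the leukocyte and intraepithelial lymphocyte receptors, had day means between 5.05 and 5.86, and none was called in any comparison. Of 12 leukocyte markers, 0, 1 and 3 were above the reference at days 4, 7 and 21, with Ptprc, the pan-leukocyte marker CD45, at 4.40, 4.49 and 4.38. The markers Csf1r, a macrophage growth factor receptor, and Laptm5, a lysosomal protein of blood cells, rose by 1.51 ± 0.11 and 1.52 ± 0.29 from day 7 to day 21 (limma adjusted p = 3.27e-06 and 0.00296), to 7.42 and 7.11, and the other 10 were not called. Csf1r and Laptm5 rose from day 7 means below the reference (5.91 and 5.60). The called share in that interval was 16.7%, beside 23.0% of all genes. Itga4 and Itga9, which bind VCAM1, fibronectin and tenascin, were not called either. Itga4 changed by 0.50 ± 0.20 from day 7 to day 21 (limma adjusted p = 0.104), and passed without day 7 replicate 2 (0.0428) or without day 21 replicate 3 (0.0248). Its day 21 against day 4 change passed without day 21 replicate 3 (0.0324).

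**Figure D3:**
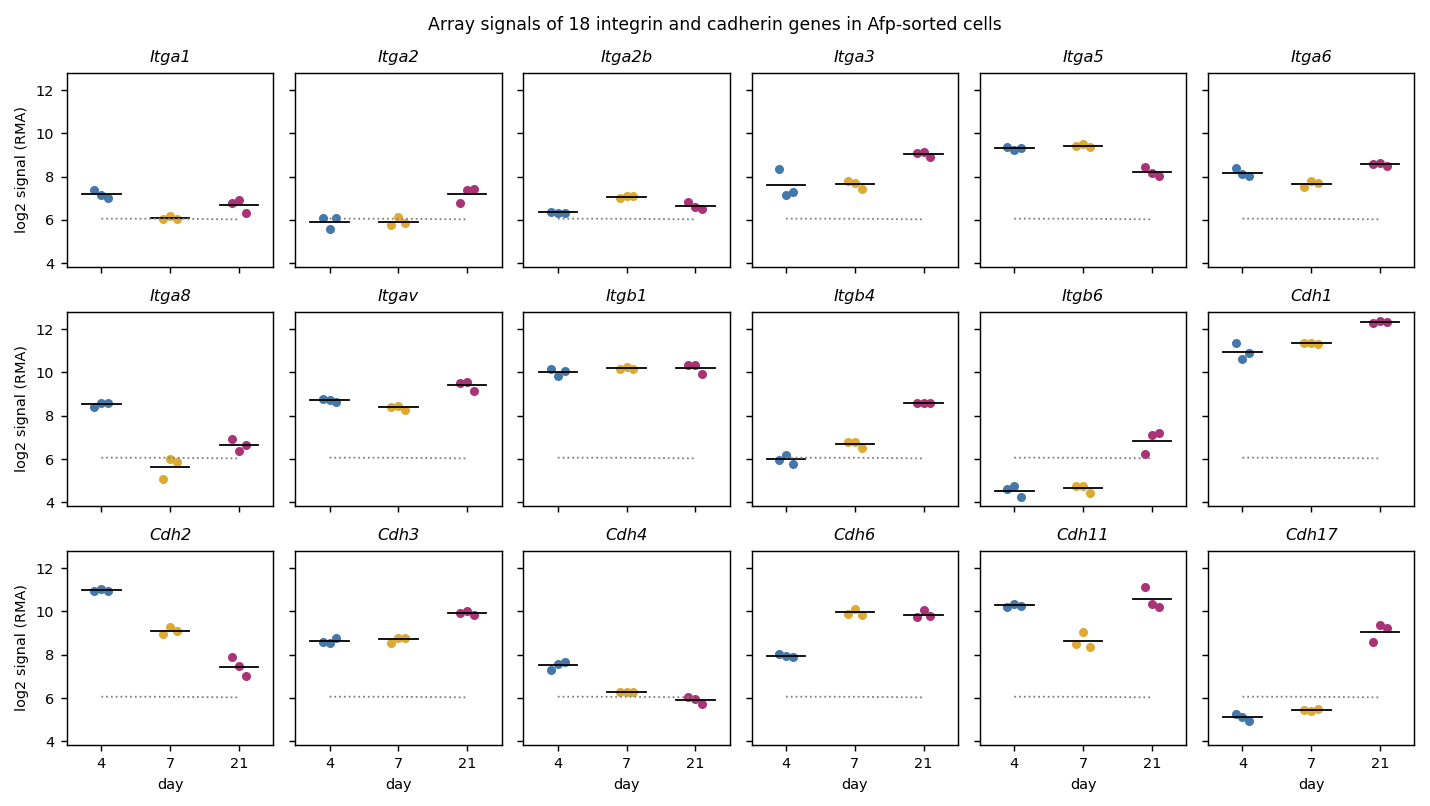
Each point is the log2 signal of 1 array (n = 3 per day), bars are day means and the dotted line is the mean olfactory receptor reference of the day, for the 18 genes given by array in the text. Itgb4 climbs and Cdh2 descends at each step, and the 3 days of Itgb1 overlap. Itgb6 and Cdh17 lie below the dotted line at days 4 and 7 and above it at day 21.

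Among the type I cadherins, Cdh1 and Cdh3 rose as Cdh2 and Cdh4 fell, at different times. Cdh1 had signals of 11.37, 10.62 and 10.90 at day 4, 11.35, 11.36 and 11.31 at day 7, and 12.29, 12.38 and 12.33 at day 21. Day 4 replicate 1 lay above all day 7 arrays, so days 4 and 7 overlapped, and day 21 was above both. The change by day 7 was 0.38 ± 0.16 without a call (limma adjusted p = 0.173), and without day 4 replicate 1 it was 0.58 with an adjusted p of 0.0102. Cdh1 rose by 0.99 ± 0.16 from day 7 to day 21 (0.00111), 1.98-fold, and another Cdh1 probe set changed by 1.27 there. E-cadherin transcripts were thus measured well above the reference on all 3 days.

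Cdh3, the P-cadherin gene and the direct neighbour of Cdh1, encodes the cadherin of placenta and basal epithelia. Its signals were 8.57, 8.55 and 8.78 at day 4, 8.56, 8.78 and 8.79 at day 7, and 9.91, 10.00 and 9.86 at day 21. Days 4 and 7 overlapped and day 21 stood above them. It rose by 1.21 ± 0.11 from day 7 to day 21 (limma adjusted p = 1.82e-05), 2.31-fold, after a change of 0.08 ± 0.11 by day 7.

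Cdh2 fell in both intervals and was the only member to do so. Its signals were 10.96, 11.05 and 10.96 at day 4, 8.95, 9.30 and 9.11 at day 7, and 7.88, 7.46 and 7.01 at day 21. Every array of a later day was below every array of an earlier one. Cdh2 fell by 1.87 ± 0.19 on the log2 scale by day 7 (limma adjusted p = 7.63e-05) and by 1.67 ± 0.19 after it (9.93e-05). From day 4 to day 21 the difference was 11.6-fold (-3.54 ± 0.19, adjusted p = 3.79e-07), and another Cdh2 probe set gave -3.51.

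Cdh4, the R-cadherin gene of neural tissue and kidney, had signals of 7.28, 7.58 and 7.67 at day 4, 6.26, 6.27 and 6.27 at day 7, and 6.03, 5.96 and 5.73 at day 21. The days did not overlap, and the day 21 mean of 5.91 was below the reference. Cdh4 fell by 1.25 ± 0.12 on the log2 scale by day 7 (limma adjusted p = 6.92e-05), and the further change of -0.35 ± 0.12 was not called (0.0658), though 3 of 17 alternative settings called it. Another Cdh4 probe set changed by only -0.22 by day 7 and -0.43 by day 21 against day 4, so the size of its fall differed between probe sets. Cdh15, the M-cadherin gene of muscle, stayed within 0.16 between day means of 6.03, 6.19 and 6.13, which lay near the reference.

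Of the 4 type II cadherins, 3 were called by day 7, beside 13.4% of all genes. Cdh6, the K-cadherin gene of kidney and early epithelia, had signals of 8.05, 7.94 and 7.90 at day 4, 9.89, 10.13 and 9.85 at day 7, and 9.74, 10.05 and 9.78 at day 21. Day 4 was apart from the later days, which overlapped each other. Cdh6 rose by 1.99 ± 0.12 by day 7 (limma adjusted p = 2e-06), 3.98-fold, the largest rise of any member in that interval, and changed by -0.10 ± 0.12 after it (0.637).

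Cdh11, a cadherin gene of mesenchyme and bone, had signals of 10.22, 10.36 and 10.25 at day 4, 8.49, 9.05 and 8.38 at day 7, and 11.12, 10.34 and 10.22 at day 21. The day 7 arrays were apart from both other days, which overlapped. It fell by 1.64 ± 0.24 on the log2 scale by day 7 (limma adjusted p = 0.000905) and rose by 1.92 ± 0.24 after it (0.000177), 3.79-fold. The difference of 0.28 ± 0.24 between days 21 and 4 was not called (0.444, 95% interval -0.24 to 0.80).

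Some mesenchyme markers fell and most later rose over the intervals in which Cdh11 and Itga1 did. Of the 12, 4 fell, none rose and 8 did not pass by day 7, and from day 7 to day 21, 11 rose and none fell (limma). Called shares were 33.3% and 91.7%, beside 13.4% and 23.0% of all genes. From day 4 to day 21, 7 were higher and 1 lower, while Itga1 was lower and Cdh11 not called. Their mean level lay between 7.05 and 7.12 on the day 4 arrays, 6.45 and 6.62 at day 7, and 8.68 and 9.51 at day 21, and Dcn and Lum were below the reference at days 4 and 7. Day 21 replicate 1 had the highest level of these markers, 9.51 beside 9.02 and 8.68. It was also the day's highest array for Cdh11, Cdh2 and other members such as Itga5, Itga2b and Cdh5. Itga1, in contrast, was highest in day 21 replicate 2 (6.81, 6.92 and 6.30). Cdh2, also a mesenchymal cadherin, fell between days 7 and 21 while these markers rose. The part of such cells in these results was not tested.

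Cdh5, the cadherin gene of endothelium, rose by 0.58 ± 0.16 by day 7 (limma adjusted p = 0.0421) and fell by 0.86 ± 0.16 on the log2 scale after it (0.00305), with day means of 7.09, 7.66 and 6.80. The rise was lost without any 1 of the 6 arrays of days 4 and 7, without day 21 replicate 2 and with arrays centred on their median, at adjusted p up to 0.142. Day 21 against day 4 was not called (-0.29 ± 0.16, 0.241), but passed without day 21 replicate 1 (0.0110). Of 12 endothelial markers, 1 rose and 1 fell by day 7 (16.7% called, beside 13.4% of all genes). After day 7, none rose and 3 fell (25.0%, beside 23.0%). Pecam1 rose by 0.59 ± 0.11 and then fell by 0.53 ± 0.11. Kdr fell by 0.81 and then by 1.25 on the log2 scale, and Egfl7 fell by 0.63 ± 0.14 after day 7. Tek, Tie1, Cldn5, Esam, Emcn, Sox18 and Erg were below the reference on all 3 days. The mean level of the list lay between 5.86 and 5.97, 5.91 and 6.04, and 5.49 and 5.69 on the arrays of days 4, 7 and 21, and its part was not tested. Cdh8, a neural cadherin gene next to Cdh11, rose by 0.42 ± 0.12 after day 7 (0.0265) from a mean below the reference. That call was lost with the replicate number as a block in the 6 arrays of both days (0.0611), in those arrays without the block (0.0571), and without day 7 replicate 1 or 2 or day 21 replicate 1, at up to 0.0849. Its day 21 against day 4 call was lost without day 4 replicate 1 (0.0575) and with the replicate block in the 6 arrays (0.0713).

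Cdh17, liver-intestine cadherin, which has more extracellular repeats than the classical cadherins and binds no catenin, showed the largest change of any member. Its signals were 5.24, 5.12 and 4.94 at day 4, 5.43, 5.42 and 5.49 at day 7, and 8.60, 9.35 and 9.25 at day 21. All arrays of days 4 and 7 lay below the dim-signal reference and all day 21 arrays far above it. Cdh17 rose by 3.62 ± 0.18 from day 7 to day 21 (limma adjusted p = 2.47e-07), 12.3-fold over a floor. Gut and squamous epithelial markers rose in the same interval, 8 of 11 with 1 lower: Krt20, a keratin of gut and urothelial surface cells, rose by 3.64 ± 0.22, whereas Vil1, the brush border protein villin, fell by 0.94 ± 0.17 on the log2 scale after an earlier rise. Krt20 rose from a day 7 mean of 4.85, below the reference. Of that marker list, 81.8% were called from day 7 to day 21, beside 23.0% of all genes. Cdx2 and Cdx1, the intestinal regulators, were below the reference on all 3 days. Cdh16, the kidney relative of Cdh17, and Cdh13, the membrane-anchored T-cadherin gene without a cytoplasmic tail, were below it too and were not called.

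The 3 contrasts were taken within each array, which removes any shift common to it. They set a type I cadherin, an integrin alpha subunit and an integrin beta subunit each against another of its kind. The signal of Cdh1 minus that of Cdh2 was 0.41, -0.42 and -0.06 on the day 4 arrays, 2.41, 2.06 and 2.21 at day 7, and 4.41, 4.92 and 5.31 at day 21. The days did not overlap, and the ratio moved by 4.75-fold by day 7 and by 29.9-fold by day 21. Between days 4 and 7 the difference moved by 2.25, with changes of -1.87 in Cdh2, which was called, and 0.38 in Cdh1, which was not, and after day 7 both members were called. An exact two-sided permutation test gave p = 0.1 for each comparison, the smallest that 3 against 3 arrays allow, so no such test can pass 0.05.

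Itga6 minus Itga5, a laminin against a fibronectin receptor subunit, was -1.12 ± 0.15 (SD, n = 3) at day 4, -1.76 ± 0.13 at day 7 and 0.35 ± 0.16 at day 21. The difference thus moved by -0.64 and then by 2.11. Itgb4 minus Itgb3 was -0.07 ± 0.11, 0.58 ± 0.21 and 2.42 ± 0.08, moving by 0.65 and 1.84. Itgb3 lay near the dim-signal reference on every day, so this contrast mostly follows Itgb4, whose own mean was below it at day 4. The days did not overlap in either pair, and all 9 exact permutation tests over the 3 pairs gave p = 0.1 and an adjusted p of 0.1. With each array left out in turn, the Cdh1 and Cdh2 difference between days 21 and 4 stayed between 4.69 and 5.14. A zero in these differences has no meaning of its own, because signals of different probe sets are not on a common scale.

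**Figure D4:**
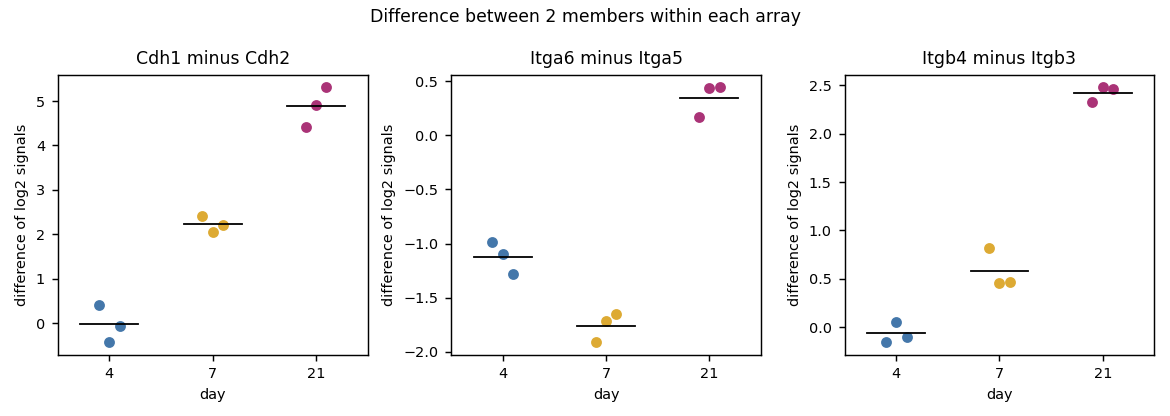
Points give the difference between the log2 signals of 2 genes on each of 9 arrays (n = 3 per day) and bars the day means, for Cdh1 minus Cdh2, Itga6 minus Itga5 and Itgb4 minus Itgb3. The first climbs from -0.02 through 2.22 to 4.88, and the middle pair drops before it climbs to 0.35.

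The partners inside the cell were followed with lists written from general knowledge. Of 15 catenins and other cadherin partners, 1 rose and none fell by day 7, and 6 rose and none fell from day 7 to day 21 (limma), with a median change of -0.04 and 0.22. Called shares were 6.67% and 40.0%, beside 13.4% and 23.0% of all genes. Jup, which encodes plakoglobin, rose by 0.85 ± 0.12 after day 7 and Ctnnb1, which encodes beta-catenin, by 0.58 ± 0.08. Nectin4, a nectin of epithelia, rose by 1.82 ± 0.15 after day 7, from a mean of 5.49 below the dim-signal reference. Nectin2 rose by 0.70 ± 0.12 by day 7. Ctnna1, the epithelial alpha-catenin gene, changed by -0.03 between days 7 and 21, when Cdh1 and Cdh3 rose.

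Of 22 measured integrin adaptors, 5 rose and 4 fell by day 7, and 8 rose and 6 fell afterwards (limma), with medians of 0.05 and 0.13. Called shares were 40.9% and 63.6%, beside 13.4% and 23.0% of all genes. Tns1, the gene of tensin-1, which ties integrins to actin, fell by 1.17 ± 0.14 on the log2 scale and then rose by 2.82 ± 0.14. Its day 7 mean of 5.82 lay below the dim-signal reference, so both changes are set against a floor. The parvins, partners of integrin-linked kinase, did not move together after day 7. Parvb rose by 0.77 ± 0.12 by day 7 and then fell by 1.60 ± 0.12 on the log2 scale. Parva had no call by day 7 and rose by 1.03 ± 0.10 after it. Parvg fell by 0.55 ± 0.15 on the log2 scale after day 7, to a mean below the dim-signal reference. Fermt1, the epithelial kindlin gene, rose by 0.78 ± 0.15 by day 7. Of the other kindlin genes, Fermt2 fell by 0.32 ± 0.10 on the log2 scale after day 7 and Fermt3 was not called. Ptk2b, a focal adhesion kinase relative, rose by 1.09 ± 0.17 after day 7. The talin genes moved in opposite directions from day 4 to day 21, Tln2 by -1.29 ± 0.11 and Tln1 by 0.61 ± 0.09.

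Most integrin ligand genes were higher at day 21 than at day 7. Of 32 measured, 9 rose and 5 fell by day 7 (43.8% called, beside 13.4% of all genes), with a median change of 0.01. From day 7 to day 21, 24 rose and 2 fell (81.2% called, beside 23.0% of all genes, limma), with a median change of 1.40. The basement membrane collagens Col4a1 and Col4a2 were among the early rises, at 1.48 ± 0.13 and 1.65 ± 0.15. Vtn, the gene of vitronectin and a ligand of alphav with beta3 or beta5, rose by 1.11 ± 0.10 by day 7 and by 4.07 ± 0.10 after it, the interval in which Itgav and Itgb5 rose. The day 4 mean of Vtn, 5.98, lay below the dim-signal reference. Col1a1 and Postn, ligand genes that also serve as mesenchyme markers, rose by 3.80 ± 0.25 and 3.71 ± 0.29 after day 7. Tgfb3, a latent TGF-beta gene, rose by 3.48 ± 0.16 in that interval, from a mean of 5.90 below the reference. Of 12 other integrin and classical cadherin genes outside the list, 1 fell in each interval, Cdh20 (-0.66 ± 0.17) and Cdh24 (-0.45 ± 0.13), and none rose. That is 8.33% in each interval, beside 13.4% and 23.0% of all genes. From day 4 to day 21, 4 were lower and none higher, 33.3% beside 29.1%. Only 3 of the 12 were above the dim-signal reference on any day, so changes of the others may go unseen.

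The other marker lists are given beside the members they bear on. For comparison, 13.4% of all genes were called by day 7 and 23.0% from day 7 to day 21. Neural markers bear on Cdh4 and Cdh8. Their mean level per array was 6.58 to 6.70 at day 4, 6.24 to 6.38 at day 7 and 6.36 to 6.50 at day 21. By day 7, as Cdh4 fell, 3 of 10 were lower and 1 higher (limma, 40.0% called). After day 7, as Cdh8 rose, 2 were higher and 2 lower (40.0%). Muscle markers lay between 6.56 and 6.69, 7.30 and 7.42, and 6.85 and 6.97 on the arrays of the 3 days. By day 7, 5 of 12 were higher and none lower, and after it 3 were lower and none higher. Itga7 and Cdh15 had no call in either interval. Both of these members lay near the dim-signal reference, where a change may go unseen. Pluripotency and epiblast markers had a mean level of 7.93 to 8.11 at day 4, 7.03 to 7.08 at day 7 and 6.13 to 6.41 at day 21. In each interval, in both of which Cdh2 fell, 6 of 11 were lower, 1 higher and 4 not called, the higher ones being Sox2 by day 7 (1.35 ± 0.20) and Klf4 after it (1.47 ± 0.18). Endoderm and hepatic markers stood between 6.51 and 6.71, 9.31 and 9.39, and 9.33 and 9.35, with 11 of 13 higher and none lower by day 7, when Cdh6 and Itgb4 rose. From day 7 to day 21, when Itgb4 rose again, 9 of the 13 were lower and 3 higher: Cubn, of yolk sac endoderm, and Ttr changed by -2.17 and -0.82, and Alb and Afp by 6.19 and 2.47. Alb lay below the dim-signal reference at days 4 and 7. The part of these cell types in the members' changes was not tested.

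**Figure D5:**
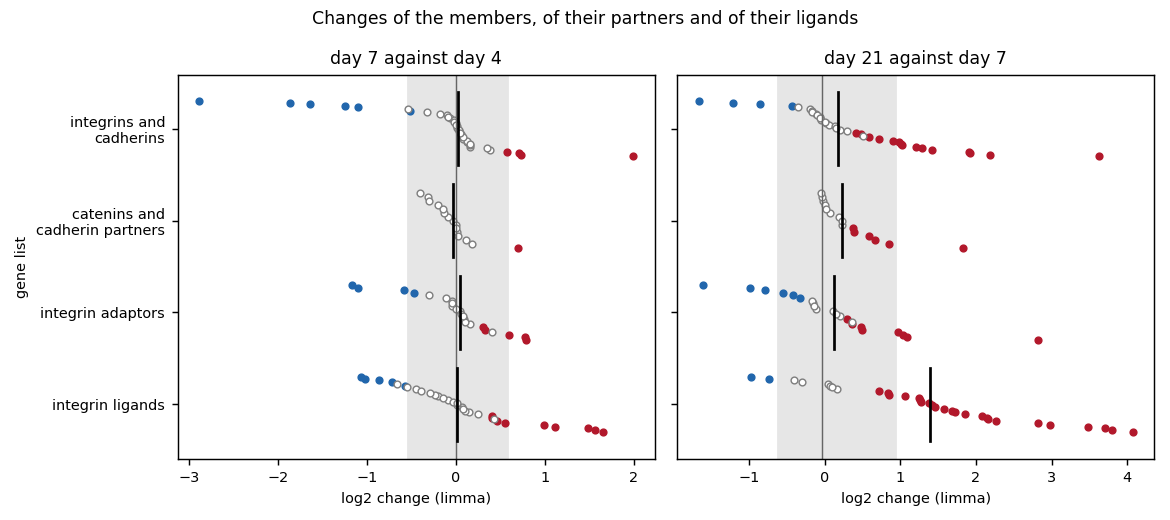
Each point is the limma log2 change of 1 gene, by list (rows), for day 7 against day 4 on the left and day 21 against day 7 on the right; red is called higher, blue called lower, open not called, the bar is the list's median and the grey band holds 90% of all 22180 genes. The ligand row is centred near 0.01 on the left and 1.40 on the right, and the row of integrins and cadherins near 0.02 and 0.17.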

How the data were processed

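Signals were deposited by the authors on a log2 scale, 1 per probe set, and per the submitters' processing notes they came from RMA in Affymetrix Expression Console. RMA as usually run corrects background, normalises quantiles and summarises probes. Versions and genome build were not given in the sources used here. Equal array distributions remove any shift common to all transcripts, amplification of small inputs can distort ratios of dim ones, and the number of arrays limits the precision. Signals ran from 1.62 to 13.98, with array medians of 5.88 to 5.98.

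Of 34365 probe sets, 23521 carried 1 gene symbol, and the brightest per gene was kept, which left 22180 genes. The 36 members came from 40 such probe sets, and 2 probe sets naming a member beside other genes were not used. Day means were estimated over the 9 arrays together by limma 3.58.1 (R 4.3.3; lmFit and eBayes, two-sided), a procedure tested on simulated data, and the threshold was an adjusted p of 0.05. Members and lists were chosen with earlier results of these data known, so a member's pattern is no independent support for any other result. Members given by array are the 8 largest called changes of each comparison plus Itgb1, Itga5, Itga6, Itgav, Cdh1 and Cdh2. Partner genes were taken from the up to 4 largest called changes per list and comparison, plus Ctnna1, Parvg, Fermt2, Fermt3 and Tln1. Replicate numbers come from the labels. Deviations of same-numbered arrays correlated at 0.12, 0.17 and 0.24 between days 7 and 21, so these were treated as paired in an alternative, and at -0.14 to -0.04 in the other comparisons. Alternatives covered centring, filters, moderation, the arrays fitted, leaving out each array and the replicate block.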

Additional observations from a re-analysis of the deposited data

How the results depend on the processing

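No called member changed sign under any alternative run. Several alternatives leave the log2 change as it is and alter only its SE or adjusted p, so they could not change a sign. Of 48 calls over 36 members and 3 comparisons, 38 held under all 17 alternatives other than a minimum change, and of 60 that were not called, 51 stayed so. A minimum log2 change of 1 left 6 called members of 10 for day 7 against day 4, 11 of 19 for day 21 against day 7 and 12 of 19 for day 21 against day 4, and 756, 1430 and 1776 genes of 2983, 5106 and 6448. Leaving out 1 array gave 8 to 12, 16 to 20 and 15 to 19 called members. The replicate block over all 9 arrays, a paired analysis, gave 10, 19 and 17 called members. For days 7 and 21 the block changed no call over 9 arrays. Over their 6 arrays only Cdh8 and Itga11 were lost with the block, and Cdh8 was also lost without it (limma adjusted p = 0.0571). In comparisons whose numbers did not pair, the block lost Itga2b (adjusted p = 0.0746) and Itga6 (0.0507) at day 21 against day 4 over 9 arrays. Over 6 arrays it lost Itga6 (0.0824) at day 7 against day 4, and Itga2b (0.126), Itga6 (0.0635) and Cdh8 (0.0713) at day 21 against day 4. Of these, Itga2b was also lost in the 6 arrays of days 4 and 21 without the block (limma adjusted p = 0.0824). Dim signals near the olfactory receptor reference limit folds to ratios over a floor.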
